A study of Mus musculus with 6 samples.

Results

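The 10 genes of integrin chains and niche adhesion receptors were followed in bulk RNA of mouse bone marrow: the alpha chains Itga4, Itga5, Itga6, Itgal and Itgam, the beta chains Itgb1, Itgb2 and Itgb7, and the receptors Cd44 and Cd47. They were taken by symbol from a count table of 47729 genes, all 10 were found, and all 10 were among the 15686 genes with enough reads to test. The series set 3 libraries of knockout mice without the SNORD113-114 cluster (cluster KO) against 3 wildtype libraries, to find genes that differ in expression. The cluster encodes small nucleolar RNAs, short guides of RNA modification, within an imprinted region. The sources used here do not state the age, sex or strain of the mice or how the deletion was made, and call the material whole marrow cell extract. The design counts 3 mice of each genotype, but no label links a mouse to a library, and the p-values cover the spread between these libraries.

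Integrins are receptors made of 1 alpha and 1 beta chain that bind matrix proteins and receptors on other cells, and that signal in both directions across the membrane. In bone marrow, Itga4 with Itgb1 (VLA-4) binds Vcam1 and fibronectin and helps hold stem and progenitor cells in the niche, and Itga4 with Itgb7 binds Madcam1. Itga5 with Itgb1 binds fibronectin, and Itga6 with Itgb1 binds laminins. Itgb2 (CD18) is the leukocyte beta chain, which pairs with Itgal (LFA-1, a receptor for Icam proteins) and with Itgam (Mac-1, a receptor of neutrophils and monocytes). Cd44 binds hyaluronan, and Cd47 is the "do not eat me" signal that macrophages read through Sirpa.

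The chains share short sequence elements in the part of the protein that lies inside the cell, and these are shown because the linkage genes described further on act there. An alpha chain element of 15 bases was searched in frame, on the coding strand, in the last 300 coding bases: GGN, then TTT or TTC in both the second and the third codon, AAA or AAG in the fourth, and CGN, AGA or AGG in the fifth. It was found in 14 of 21526 coding genes (0.065%), which were the 5 alpha chains followed here and 9 of the other 13. The bases are from GENCODE M21 transcripts on GRCm38, 5′ to 3′, with the element in capitals.
Itga4: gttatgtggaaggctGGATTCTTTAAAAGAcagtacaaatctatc
Itga5: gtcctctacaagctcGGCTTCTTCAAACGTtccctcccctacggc
Itga6: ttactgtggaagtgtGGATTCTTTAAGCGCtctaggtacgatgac
Itgal: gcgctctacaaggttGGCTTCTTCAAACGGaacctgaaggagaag
Itgam: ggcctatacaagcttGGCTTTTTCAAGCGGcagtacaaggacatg
Each of these stretches spans 2 coding exons. They lie at chr2:79325683-79326552 for Itga4, chr2:71849495-71855886 for Itga6, chr7:127330228-127333484 for Itgal and chr7:128116835-128117338 for Itgam, on the plus strand, and at chr15:103345320-103345963 on the minus strand for Itga5.

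The beta chains carry paired docking sites for talin and kindlin near their ends. An element of 12 bases was searched in frame in the last 150 coding bases: AAT or AAC, CCN, NNN, then TAT, TAC, TTT or TTC. At least 1 match was present in 201 of 21526 coding genes (0.934%), and 2 matches in 7 genes (0.0325%), among them all 3 beta chains followed here. Of the other 5 beta chains, 3 held 1 match and 0 held 2. The last 150 coding bases before the stop codon are given with the matches in capitals.
Itgb1: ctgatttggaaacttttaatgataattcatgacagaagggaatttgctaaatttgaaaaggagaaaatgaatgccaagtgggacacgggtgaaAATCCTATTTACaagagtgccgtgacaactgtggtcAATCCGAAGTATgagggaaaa
Itgb2: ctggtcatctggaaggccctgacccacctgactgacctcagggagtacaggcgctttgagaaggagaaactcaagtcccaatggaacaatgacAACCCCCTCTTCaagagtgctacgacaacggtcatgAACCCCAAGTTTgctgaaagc
Itgb7: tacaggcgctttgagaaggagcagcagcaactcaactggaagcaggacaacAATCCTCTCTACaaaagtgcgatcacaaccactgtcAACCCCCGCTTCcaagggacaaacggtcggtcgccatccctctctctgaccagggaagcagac
They lie at chr8:128726100-128732085 (Itgb1, plus strand), chr10:77564715-77565237 (Itgb2, plus) and chr15:102216163-102216516 (Itgb7, minus). Such matches describe the sequence and say nothing of how much of each chain the marrow made.

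The 6 libraries held 17663369 to 23459168 counts on genes, and a count of 0 allows up to 3 counts, 0.128 to 0.17 CPM (reads scaled to a common library size by TMM). The deletion could not be checked: the 23 snoRNA genes annotated between Rian and Mirg summed to 0 counts over the cluster KO and to 1 count over the wildtype libraries, and Rian, a host transcript, had 9, 6 and 3 raw counts against 11, 5 and 38. Cluster KO 1 stood apart in a list of 15 neutrophil markers, whose summed level was 21102 CPM there, 12367 and 11206 CPM in the other cluster KO libraries, and 6598 to 12468 CPM in the wildtype libraries. Summed B lineage markers were at 2258 to 2413 CPM in cluster KO and 760 to 817 CPM in wildtype (10 of 14 higher, led by Igll1 and Cd79a), and megakaryocyte and platelet markers at 142 to 187 against 351 to 459 CPM (4 of 10 tested lower, led by Pf4 and Itga2b). Stem and progenitor markers summed to 1963 to 1967 against 1400.2 to 1454 CPM (8 of 14 higher, 1 lower). Of the most abundant, Cd48 was higher (279 against 184 CPM on average). Kit was the lower one (279 against 354 CPM on average, edgeR adjusted p = 0.0467). Erythroid markers summed to 1067 to 1395 against 1517 to 1974 CPM (6 of 12 lower). The most abundant erythroid markers, Klf1 (401 against 299 CPM on average) and Tfrc (195 against 237 CPM), were not among those that passed. Without wildtype 2 or wildtype 3, 5 stem and progenitor markers were higher and 0 lower, and 3 erythroid markers were lower. With the 2 most abundant of each list in parentheses, whether or not they passed, of the tested monocyte (Ly6c2, Ccr2), T and NK (Nkg7, Trbc1), basophil and mast cell (Cpa3, Gata2), and stroma and endothelial (Cxcl12, Emcn) markers, 1 of 13, 2 of 11, 1 of 6 and 2 of 7 were higher, and 0, 1, 1 and 0 lower; of the 15 neutrophil markers (S100a8, S100a9) 5 were higher and 0 lower. Beside these marker counts, 15.9% of all tested genes were higher and 12.1% lower by the same test, so counts such as 1 of 6 or 2 of 11 are near the background. The stroma and endothelial rises numbered 0 without cluster KO 2 or wildtype 3 and 1 without wildtype 1. In bulk RNA, fewer cells of a type and less RNA per cell cannot be told apart. The share of rRNA genes was 0.251 to 0.614% of counts in cluster KO and 0.998 to 1.44% in wildtype. Mitochondrial genes held 1.46 to 2.17% against 2.72 to 3.06%, and ribosomal protein genes 3.90 to 5.38% against 7.19 to 8.15%. Reads without a unique alignment made up 13.4 to 14.7% against 16.1 to 16.8%. Each of these shares separated the genotypes fully. The part of these shares and markers in the differences that follow was not tested.

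Of the 10 receptors, Itgb2 alone passed the test, rising in cluster KO, and 0 fell. Over all genes 27.9% passed, 15.9% higher and 12.1% lower (edgeR quasi-likelihood test, Benjamini-Hochberg adjusted p under 0.05 over all 15686 genes). Itgb2 and Cd44 (lower) had an unadjusted p under 0.05, and DESeq2 and limma-voom also called 1 higher and 0 lower. Of all calls 56.8% were higher in cluster KO, and 46.6% under upper quartile scaling, which moved the median of all genes to -0.10 on the log2 scale. The median log2 fold change of the 10 was -0.09, against 0.0024 over all genes tested, and their log2 fold changes ran from -0.37 (Cd44) to 0.46 (Itgb2). In 2 receptors every cluster KO library lay above every wildtype library and in 3 every one lay below, where 22.9% and 23.1% of all tested genes did so, 46% in all. Which receptors passed depended on the libraries used. Without cluster KO 1, Itgb2 was still called and Itga4 and Cd44 passed as lower, and without any other library 0 of the 10 passed in either direction.

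**Figure D1:**
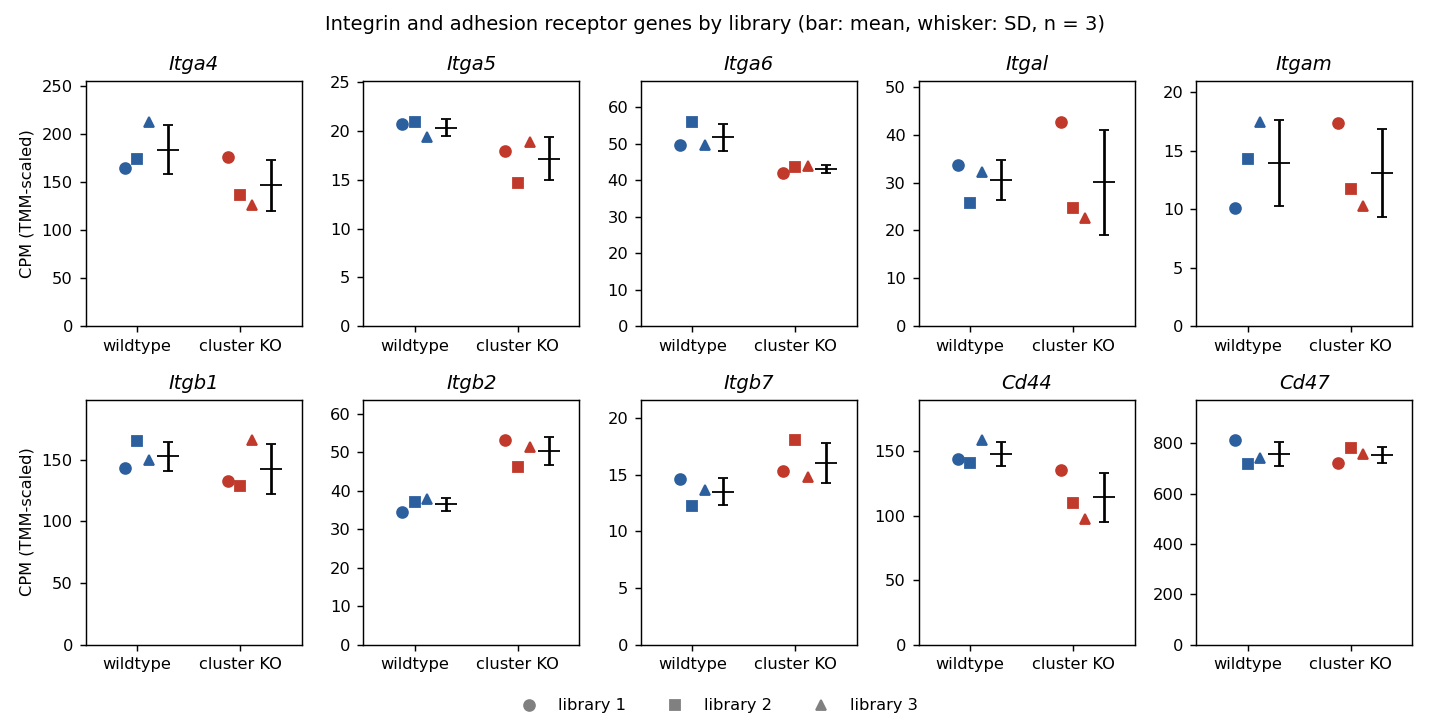
TMM-scaled CPM of the 10 receptor genes in each library (3 wildtype in blue, 3 cluster KO in red; the marker shape gives the library number; the bar is the mean and the whisker the SD, n = 3; each axis starts at 0). Itgb2 and Itgb7 have all red points above all blue points, and Itga5, Itga6 and Cd44 have them all below.

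Among the leukocyte integrins, the shared beta chain rose while the alpha chains followed here, Itgal and Itgam, passed in neither direction. Itgb2 (chromosome 10, 77530252 to 77565708, plus strand, GRCm38) was at 53.1, 46.1 and 51.5 CPM in cluster KO and at 34.6, 37.1 and 37.8 CPM in wildtype libraries. The groups did not overlap, and within each genotype the libraries lay close together. Its fitted log2 fold change was 0.46 (SE 0.14, 95% interval 0.16 to 0.76, edgeR adjusted p = 0.0295), a rise of 1.38-fold. The adjusted p rose above 0.05 without cluster KO 2 (0.0658), cluster KO 3 (0.0552), wildtype 1 (0.0942), wildtype 2 (0.0879) or wildtype 3 (0.072), with log2 fold changes of 0.42 to 0.52, and its range over all alternatives was 0.00486 to 0.22. With trends on transcript length and GC content removed, the log2 fold change was 0.30 (adjusted p = 0.113).

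Itgal, the alpha chain of LFA-1, was at 42.7, 24.7 and 22.6 CPM in cluster KO and at 33.8, 25.8 and 32.3 CPM in wildtype libraries. Cluster KO 1 held the highest value of all 6 and the other cluster KO libraries the lowest. Its log2 fold change was -0.03 (95% interval -0.57 to 0.51, edgeR adjusted p = 0.939), and it was -0.38 without cluster KO 1 (adjusted p = 0.124) and 0.14 without cluster KO 3 (adjusted p = 0.724). Itgam, the alpha chain of Mac-1, was at 17.4, 11.7 and 10.3 CPM against 10.1, 14.3 and 17.5 CPM. Its groups overlapped over their whole range, and cluster KO 1, with the highest neutrophil marker sum, was again the highest of its group. For Itgam the log2 fold change was -0.09 (95% interval -0.68 to 0.51, edgeR adjusted p = 0.839), with -0.35 without cluster KO 1 (adjusted p = 0.333). The part of neutrophil content in these values was not tested.

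The level of Itgam carries an annotation limit. Itgam (chromosome 7, 128062640 to 128118491) lies 11055 bases before Itgax and 727501 bases after Itgal, in a run of alpha chain genes on the same strand. A readthrough gene, Gm49368, is annotated on the same strand over 3450 of its 5024 exon bases (68.7%). Gm49368 had 0 or 1 raw counts in each library, so reads on the shared exons were not credited to it, and the sources used here do not state the counting mode that decides whether Itgam received them. If Itgam received none, its wildtype level was 8.86 ± 2.35 CPM per kilobase (SD, n = 3) of its 1574 own exon bases, against 2.98 ± 0.791 CPM per kilobase of its longest coding transcript. Of the other receptors, only Itga4 shares annotated exon bases with another gene, on the opposite strand (Cerkl, 8.04% of its exon bases), and these libraries carry no strand.

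Among the integrins of the niche, the 3 alpha chains had lower means in cluster KO than in wildtype and none passed the test, and Itgb1 overlapped. Itga4, the alpha chain of VLA-4, was at 176, 137 and 126 CPM in cluster KO and at 165, 174 and 213 CPM in wildtype libraries. Cluster KO 1 lay among the wildtype values, and the other cluster KO libraries lay below all of them. Its log2 fold change was -0.33 (SE 0.15, 95% interval -0.67 to 0.01, edgeR adjusted p = 0.137). Without cluster KO 1 Itga4 passed, at -0.49 (adjusted p = 0.0181). Without wildtype 3 it was at -0.21 (adjusted p = 0.406), and after removal of length and GC trends it was at -0.03 (adjusted p = 0.862).

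Itga5, the fibronectin receptor alpha chain, was at 18.0, 14.7 and 18.9 CPM in cluster KO against 20.7, 20.9 and 19.4 CPM in wildtype. Every cluster KO value was below every wildtype value, by a narrow margin. The fit gave a log2 fold change of -0.24 (95% interval -0.63 to 0.14, edgeR adjusted p = 0.32). Itga6, the laminin receptor alpha chain, was at 41.8, 43.6 and 43.7 CPM against 49.5, 55.9 and 49.7 CPM. Its groups did not overlap either, and the spread within cluster KO was small (SD 1.05 CPM). For Itga6 the log2 fold change was -0.26 (SE 0.13, 95% interval -0.55 to 0.03, edgeR adjusted p = 0.154). After removal of length and GC trends, both Itga5 and Itga6 were at -0.15.

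Itgb1, the beta chain shared by those 3 alpha chains, was at 133, 128 and 166 CPM in cluster KO and at 143, 165 and 149.7 CPM in wildtype. Cluster KO 3 and wildtype 2 were the highest, and the other cluster KO libraries the lowest. Its log2 fold change was -0.10 (95% interval -0.39 to 0.19, edgeR adjusted p = 0.595), and -0.22 without cluster KO 3 (adjusted p = 0.204). Itgb7, the lymphocyte beta chain that pairs with Itga4, was at 15.4, 18.1 and 14.8 CPM against 14.6, 12.3 and 13.7 CPM. Its groups did not overlap, though cluster KO 3 and wildtype 1 nearly touched. For Itgb7 the log2 fold change was 0.25 (95% interval -0.16 to 0.66, edgeR adjusted p = 0.342), and 0.03 after removal of length and GC trends (adjusted p = 0.928).

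Neither receptor outside the integrin family, Cd44 or Cd47, passed with all 6 libraries, and they were not tested against each other. Cd44 (chromosome 2, 102811141 to 102901665, minus strand, GRCm38) was at 135, 110.2 and 97.6 CPM in cluster KO and at 144, 141 and 159 CPM in wildtype libraries. All cluster KO values were lower, with cluster KO 1 the nearest to wildtype. The fitted log2 fold change was -0.37 (SE 0.14, 95% interval -0.68 to -0.06, edgeR adjusted p = 0.0709). This interval is for Cd44 alone and excludes 0, while the p adjusted over all genes missed the threshold. Cd44 passed without cluster KO 1 (-0.52, adjusted p = 0.00881) and under upper quartile scaling (-0.47, adjusted p = 0.0452), and was at -0.17 with length and GC trends removed (adjusted p = 0.25).

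Cd47 (chromosome 16, 49800533 to 49915010, plus strand) was at 721, 782 and 757 CPM in cluster KO and at 812, 718 and 742 CPM in wildtype libraries. The groups overlapped across most of their range. The log2 fold change was -0.01 (SE 0.09, 95% interval -0.22 to 0.20, edgeR adjusted p = 0.954), the narrowest interval of the 10, which covers folds from 0.861 to 1.15. Its sign turned under several alternatives, up to 0.18 with length and GC trends removed (adjusted p = 0.166).

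**Figure D2:**
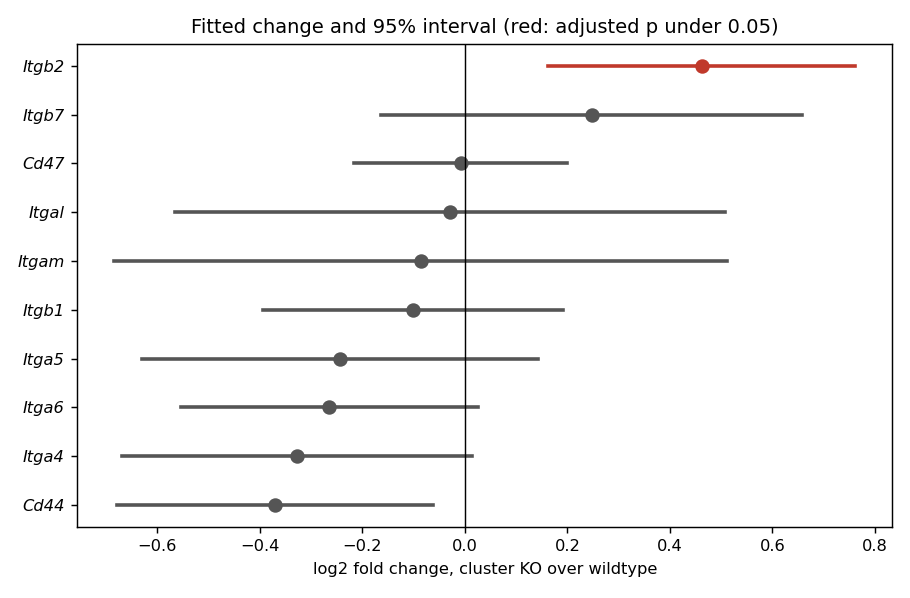
Fitted log2 fold change of each receptor gene, cluster KO over wildtype (point), with its 95% interval (line). Itgb2 at 0.46, in red, is the 1 gene with an adjusted p under 0.05, and the intervals of the other genes cross 0 except that of Cd44, which ends at -0.06.

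**Figure D3:**
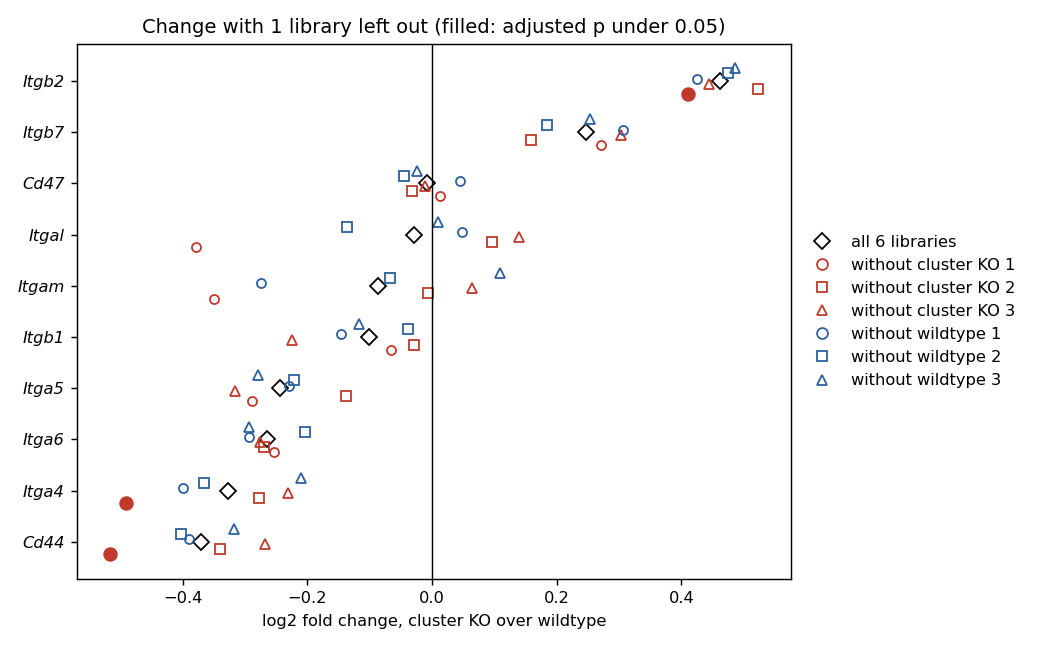
Log2 fold change of each receptor gene, cluster KO over wildtype, with all 6 libraries (diamond) and with each library left out (red for a cluster KO library, blue for a wildtype library, filled where the adjusted p is under 0.05). The filled points are those without cluster KO 1, at -0.52 for Cd44, -0.49 for Itga4 and 0.41 for Itgb2.

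Levels of different genes were compared as CPM per kilobase of the longest coding transcript. In wildtype marrow Cd47 was highest, at 144 ± 9.23 CPM per kilobase (SD, n = 3), followed by Itgb1 at 40.02 ± 3.04, Cd44 at 26.3 ± 1.68 and Itga4 at 18.8 ± 2.61. Itgb2 (12.3 ± 0.567) and Itga6 (12.002 ± 0.846) came next and overlapped. Itgal (5.86 ± 0.808), Itgb7 (5.04 ± 0.437) and Itga5 (4.64 ± 0.195) followed, where Itgb7 overlapped both of its neighbours, and Itgam was last on this scale, below the range of Itga5, subject to the shared exons. In cluster KO libraries Itgb2 (16.9 ± 1.23) stood between Cd44 (20.4 ± 3.42) and Itga4 (14.98 ± 2.69), and overlapped both. The level of Itgb2 relative to Itgb1, a ratio of CPM per kilobase, was 0.513, 0.462 and 0.399 in cluster KO and 0.311, 0.288 and 0.324 in wildtype libraries, with no overlap. The ratio of Itga4 to Itgb7 was 3.15, 2.08 and 2.35 against 3.10, 3.88 and 4.27, and the ratio of Itgal to Itgb2 was 0.458, 0.305 and 0.25 against 0.555, 0.396 and 0.486. Both of these overlapped between genotypes, and no ratio was tested. The order of genes depends on the length used. Per kilobase of all annotated exon bases, Itga6 was at 5.73 and Itgb2 at 11.9 CPM on average in wildtype. On that length Itga6 (4.77) lay below Itgb7 (5.80) on average in cluster KO.

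Of the rest of the integrin family, many genes had few or no reads, and both chains of the platelet integrin fell. Of 18 other subunit genes 9 had enough reads to test, 3 fell and 0 rose (also by DESeq2 and limma-voom; at an unadjusted edgeR p under 0.05, again 3 and 0), with a median log2 fold change of -0.98 over those 9. Of all genes 27.9% passed in either direction, and 3 calls among 9 genes are near that share. All 3 calls were lower, a larger share than the 12.1% lower over all genes, and this difference was not tested. The 9 untested subunits had at most 31 raw counts in any library, and Itga7 had 0 in all 6. Itga2b, which forms the platelet fibrinogen receptor with Itgb3, was at 18.3, 16.2 and 17.8 CPM against 40.0, 44.0 and 44.7 CPM (a fitted log2 fold change of -1.30, SE 0.15, edgeR adjusted p = 0.00119). Its partner Itgb3 was at 9.64, 11.1 and 5.02 CPM against 18.6, 16.1 and 23.5 CPM (-1.18, SE 0.29, edgeR adjusted p = 0.0154; 0.0708 without wildtype 3). Both are on the megakaryocyte list, of which Pf4, a platelet chemokine and the most abundant, was at 70.4 against 256 CPM on average, and the part of those cells in the fall was not tested. Itga3, near the floor at 0.0842 to 0.325 against 0.769 to 1.19 CPM, was the third (edgeR adjusted p = 0.0254, 0.0562 to 0.112 without cluster KO 1 or 2 or any wildtype library). Itgav, a vitronectin receptor chain, was at 18.2 ± 2.08 CPM against 17.9 ± 4.17 CPM (SD, n = 3). The count of 3 fell to 2 without cluster KO 2, wildtype 1 or wildtype 2 and to 1 without wildtype 3. Without cluster KO 1, 2 were lower and 1 was higher.

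Of 27 ligand genes of these receptors 18 were tested, 4 rose and 1 fell, with a median of 0.20. That number of calls is near the background, where 27.9% of all genes passed. Icam2, a ligand of LFA-1, was at 84.2, 93.6 and 105 CPM against 56.2, 53.2 and 38.3 CPM (a fitted log2 fold change of 0.93, SE 0.17, edgeR adjusted p = 0.00462). F11r, a junctional protein that also binds LFA-1, changed by 1.36 (SE 0.21, edgeR adjusted p = 0.00278), with 30.8 to 45.5 CPM in cluster KO and 12.5 to 16.5 CPM in wildtype. Spp1 (osteopontin), a ligand of Cd44 and of several integrins, was at 66.3, 27.6 and 9.71 CPM against 9.64, 6.96 and 4.41 CPM. Cluster KO 1 was far the highest, and the log2 fold change was 2.30 (edgeR adjusted p = 0.0191) with that library and 1.40 without it, and the adjusted p was 0.0665 without wildtype 2 and 0.0769 without wildtype 3. Spp1 also missed the threshold under limma-voom (adjusted p = 0.0952), with no filter (0.18), under upper quartile scaling (0.0528) and with length and GC trends removed (0.0664). Thbs1 (thrombospondin 1), which binds Cd47 as well as integrins, was at 3.52, 3.11 and 1.02 CPM against 13.2, 15.4 and 17.0 CPM (a fitted log2 fold change of -2.57, SE 0.39, edgeR adjusted p = 0.00279). Icam4, a red cell ligand, was at 54.7 ± 7.77 against 67.4 ± 1.97 CPM and missed the threshold (edgeR adjusted p = 0.133). Ligand calls numbered 2 up and 1 down without wildtype 2 or wildtype 3, 4 up and 4 down without cluster KO 1, and 4 up and 2 down without wildtype 1.

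Of 44 tested genes that activate integrins or link them to the cytoskeleton, 10 rose and 5 fell, with a median of 0.13, where 15.9% of all genes rose and 12.1% fell. Rac2, a small GTPase that acts on actin in leukocytes, was at 635, 683 and 751 CPM against 307, 304 and 212 CPM (a fitted log2 fold change of 1.33, SE 0.15, edgeR adjusted p = 0.00113). Nedd9, a docking protein of focal adhesions, changed by 1.16 (SE 0.16) and Skap2, an adaptor of integrin signalling, by 0.73 (SE 0.12). Parvb, a parvin of the complex at the beta chain tail, was at 20.2, 15.2 and 18.1 CPM against 43.7, 39.7 and 61.7 CPM (a fitted log2 fold change of -1.44, SE 0.20, edgeR adjusted p = 0.00248). Fermt3 (the kindlin of blood cells), which binds beta chain tails, was at 148, 208 and 286 CPM against 155, 148 and 135 CPM. It missed the threshold (log2 fold change 0.55, edgeR adjusted p = 0.0653) but passed under the DESeq2 Wald test (0.56, adjusted p = 0.0265). In edgeR, Fermt3 passed without cluster KO 1 (0.75, adjusted p = 0.00328) and was at 0.28 without cluster KO 3. Linkage calls numbered 5 higher and 1 lower without cluster KO 2 or wildtype 3, 6 and 1 without wildtype 2, 7 and 2 without cluster KO 3, and 8 and 2 without wildtype 1.

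Around Cd44, 4 of 19 tested partner and hyaluronan genes rose and 7 fell, with a median of -0.02, beside 15.9% and 12.1% over all genes. Mmp14, a membrane protease that cuts Cd44, was at 8.22, 6.48 and 6.23 CPM against 25.7, 21.6 and 23.6 CPM (a fitted log2 fold change of -1.76, SE 0.20, edgeR adjusted p = 0.00113). Ank1, the ankyrin of red cells, changed by -1.71 (SE 0.28). Msn (moesin), which ties Cd44 to actin, changed by 0.64 (SE 0.11), and Cd74, a partner of Cd44 that B lineage cells express, by 1.44 (SE 0.16). Ezr (ezrin), of the same family as moesin, was at 105 ± 7.35 against 106 ± 10.9 CPM (SD, n = 3). The falls numbered 2 without cluster KO 2, wildtype 2 or wildtype 3 and 4 without cluster KO 3 or wildtype 1, and the rises 2 without wildtype 2.

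Around Cd47, 7 of 14 tested genes on the partner list rose and 3 fell, with a median of 0.56, while Cd47 itself did not pass. The shares over all genes were 15.9% and 12.1%. The list also holds paired receptors of the Sirpa family, not only partners of Cd47, and the rises include Sirpb1b, whose counts are uncertain. Ptpn6, the phosphatase that Sirpa recruits, was at 156, 241 and 296 CPM against 110, 107 and 105 CPM (a fitted log2 fold change of 1.10, SE 0.20, edgeR adjusted p = 0.00465; 0.70 with length and GC trends removed). Rac1 changed by 0.63 (SE 0.12). Sirpb1b, a paired receptor of the Sirpa family, rose from a level near the floor, at 1.72 to 2.52 against 0.113 to 0.271 CPM, and genes of its family have near-identical copies, so its counts are uncertain. Ubqln1, a ubiquilin first described as a link between Cd47 and cytoskeletal filaments, was at 70.8 ± 6.95 against 67.4 ± 1.99 CPM (SD, n = 3). Partner calls numbered 4 higher and 2 lower without cluster KO 2 or wildtype 3, and 5 higher and 2 lower without wildtype 2.

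Of 27 tested genes of selectins and other adhesion receptors of blood and niche cells, 10 rose and 1 fell, with a median of 0.24, set against 15.9% and 12.1% of all genes. Selplg, which encodes the selectin ligand PSGL-1, changed by 1.44 (SE 0.21), and the tetraspanin gene Cd82 by 1.70 (SE 0.23). Spn (CD43, leukosialin) was the fall, at 83.5, 59.1 and 57.8 CPM against 129.7, 151 and 167 CPM (a fitted log2 fold change of -1.16, SE 0.17, edgeR adjusted p = 0.0026). Cd63, another tetraspanin gene, was at 359 ± 49.3 against 339 ± 7.77 CPM. The falls numbered 2 without cluster KO 1 or wildtype 1. Summed B lineage and progenitor markers were higher in every cluster KO library than in any wildtype library, and their part in these rises was not tested.

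**Figure D4:**
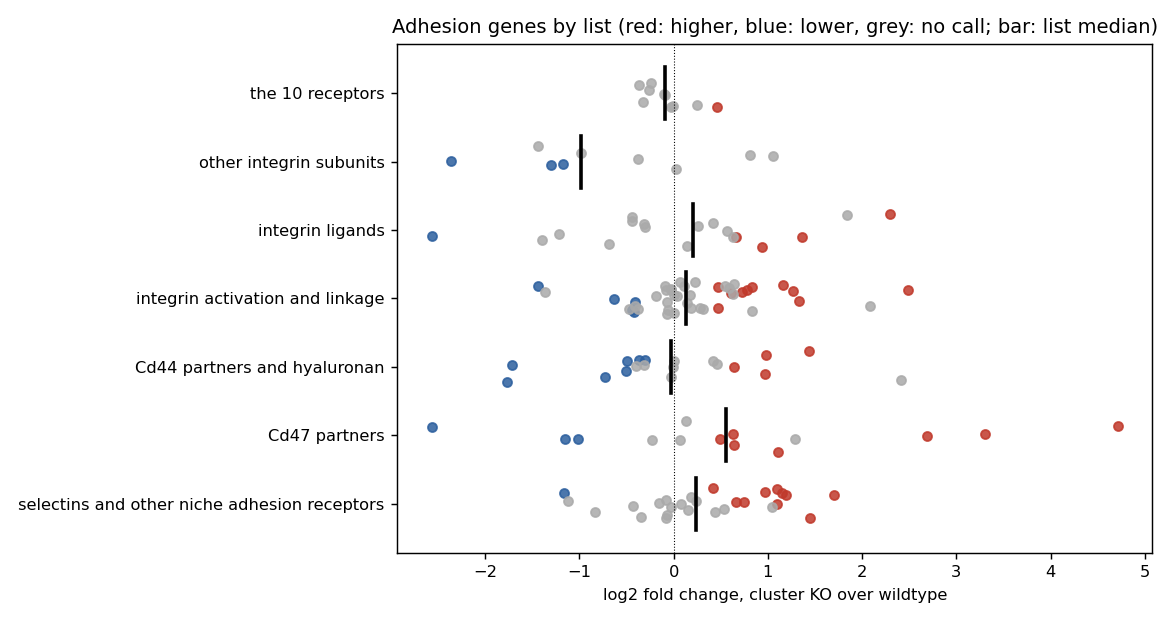
Log2 fold change, cluster KO over wildtype, of every tested gene of each adhesion list (red for higher, blue for lower, grey for no call, with the list median as a black bar; vertical positions within a row are scattered for legibility). The 10 receptors lie between -0.37 and 0.46, while single genes of the other lists reach -2.57 (Thbs1) and 4.71 (Sirpb1c). Sirpb1c is of the same family as Sirpb1b, with near-identical copies, so its counts are uncertain too.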

How the data were processed

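The authors deposited raw read counts per Ensembl gene in 1 table of 6 libraries; per the submitters' processing notes the tools were bcl2fastq, TopHat2 and HTSeq on mm10, without versions. Per the labels' protocols the poly(A) Nextera libraries carry no strand. The 5 HTSeq summary rows stayed out of library sizes and tests. Names, positions and lengths came from GENCODE M21 on GRCm38 (47310 of 47729 genes matched).

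Groups came from the sample titles. Cluster KO was compared with wildtype in edgeR 4.0.16 (R 4.3.3): TMM scaling, filterByExpr (minimum count 10), robust quasi-likelihood F-tests on a model of genotype alone, and Benjamini-Hochberg adjustment at 0.05 over all 15686 genes tested. The fit was also run on simulated counts. Far fewer genes were changed there than passed here, so that run does not show how the fit performs on these libraries. CPM uses TMM-scaled library sizes. The SE is the log2 fold change divided by the root of F. Alternatives used DESeq2 1.42.0, limma 3.58.1, other scalings, no filter, length and GC offsets (99.6% of tested genes), a replicate block and single libraries left out. Replicates within a genotype differed by more than counting noise (chi-square per degree of freedom 11.2 to 73).

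The 10 receptors and all lists were chosen with earlier results of these data known. Named genes were, per list, up to 4 with the smallest p among those that passed and the most abundant tested gene that did not, and, per cell type list, the 2 most abundant markers. One gene that this rule names is not reported here. Limits for a count of 0 cover counting error only.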

Additional observations from a re-analysis of the deposited data

How the results depend on the processing

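Alternatives were run on the counts of calls and on the named genes of the receptor and partner lists. For these, beyond the values given here, counts stayed within 1.5 times and directions held, and the cause of each change was not tested. For the cell type markers only counts were rerun. Over all alternatives, higher and lower calls ran from 5 to 9 and 0 to 1 for stem and progenitor markers, 4 to 6 and 0 for neutrophil, 0 to 4 and 0 to 1 for monocyte, 10 to 12 and 0 for B lineage, 1 to 2 and 0 to 2 for T and NK, 0 to 1 and 3 to 7 for erythroid, 0 and 3 to 5 for megakaryocyte, 1 to 2 and 1 for basophil and mast cell, and 0 to 2 and 0 to 1 for stroma and endothelial markers. With each library left out in turn, genes higher numbered 1258 to 3151 and genes lower 742 to 2579. The receptors numbered 0 to 1 higher, 0 to 2 lower, 1 to 2 with all cluster KO libraries above wildtype and 3 to 5 with all below. Over the same omissions the other integrin subunits gave 0 to 1 higher and 1 to 3 lower, ligands 2 to 4 and 1 to 4, linkage genes 5 to 11 and 1 to 6, Cd44 partners 2 to 4 and 2 to 6, Cd47 partners 4 to 6 and 2 to 3, and selectins and other adhesion receptors 7 to 12 and 1 to 2.

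Replicate numbers showed no pairing of the libraries: the correlations of same-numbered deviations were -0.20, -0.00033 and -0.17. The highest correlations were of cluster KO 3 with wildtype 1 (0.20) and of cluster KO 1 with wildtype 3 (0.17). Deviations from means of 3 libraries are tied to each other, so these values cannot settle whether libraries were paired. With the replicate number as a block, 1331 genes were higher and 865 lower, and 1160 and 996 with length and GC trends also removed. Under the block 0 receptors were higher (Itgb2 0.46, adjusted p = 0.0981), and 0 with the trends removed, with or without the block. The block gave 1 other integrin subunit lower (1 with the trends removed), 5 linkage genes higher and 2 lower (5 and 1), 2 Cd44 partners lower (2 higher and 3 lower), 4 Cd47 partners higher (4) and 6 selectins and other receptors higher. Under the block Itgb3 and Itga3 had an adjusted p of 0.0522 and 0.0764, and of 0.0641 and 0.0964 with the trends removed. With the trends removed and no block, 3 linkage genes were lower and 4 Cd47 partners higher.

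Upper quartile scaling gave 0 receptors higher (Itgb2 0.36, adjusted p = 0.0861), 1 lower (Cd44) and 1 with all cluster KO libraries above, 2 ligands higher and 2 lower, and 2 selectins and other receptors lower. The DESeq2 Wald test gave 2 ligands and 2 selectins and other receptors lower, limma-voom 2 ligands higher, and no filter on low counts 3 linkage genes lower.

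Signs turned in 7 genes that did not pass with all libraries. Leaving out single libraries, Itgal ran from -0.38 to 0.14, Itgam from -0.35 to 0.11, Cd47 from -0.045 to 0.044, Itgav from -0.15 to 0.15, Ezr from -0.10 to 0.037, Ubqln1 from -0.0084 to 0.12 and Cd63 from -0.044 to 0.15. With length and GC trends removed, Itgal was at 0.10 (0.071 with the block), Itgam at 0.056 (0.056) and Cd47 at 0.18 (0.18). With no filter Cd47 was at 0.017 and Ezr at 0.00085. Under upper quartile scaling Itgav was at -0.076, Ubqln1 at -0.040 and Cd63 at -0.015. Depth limits the precision of the low genes Itga3 and Sirpb1b.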
